A study of Mus musculus with 2 samples.

Results

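The genes that write, maintain and erase DNA methylation were examined in differentiating mouse ESCs with and without an induced deletion of Ino80, the ATPase of a chromatin remodeling complex. The 10 members, Dnmt1, Uhrf1, Uhrf2, Dnmt3a, Dnmt3b, Dnmt3l, Tet1, Tet2, Tet3 and Tdg, were taken by symbol from the 24354 genes that the authors listed by FPKM, the number of fragments per kilobase of transcript in a library scaled to a common size, and all 10 were present. There was 1 library of differentiating control ESCs, Diff–CONT, and 1 library of differentiating inducible knockout ESCs, Diff–iKO, so no difference has a replicate check and no p-value is given. They are called the control library and the library labelled iKO below. The methods of the study describe both lines as derived from blastocysts with floxed Ino80 on both alleles, with ROSA26-CreER only in the knockout line, whereas the labels call the control genotype WT. Cells of both lines formed embryoid bodies (EBs), which were transferred on day 4 and then grown for 7 days in BMP4 medium containing 0.5 µM 4-hydroxytamoxifen, the ligand that activates CreER. Each condition is thus 1 library of 1 line, and a difference between the lines cannot be told apart from a difference due to Ino80.

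Cytosine methylation at CpG sites is copied after replication by DNMT1, which UHRF1 guides to hemimethylated DNA. New methylation is laid down by DNMT3A and DNMT3B, and DNMT3L, which has no catalytic activity of its own, binds and stimulates both. The TET dioxygenases oxidize methylcytosine, and the glycosylase TDG excises the more oxidized bases so that base excision repair can restore cytosine. In the mouse embryo, Tet1, Dnmt3l and Dnmt3b are known for high expression in pluripotent cells, while Tet3 and Dnmt3a are also expressed in many differentiated cells.

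Dnmt3l and Tet1 were each about 4-fold higher in the library labelled iKO, and Dnmt3b was close to 2-fold lower. Dnmt1, Uhrf1 and Dnmt3a lay near their control levels. The sequences before the starts of Tet1, Dnmt3l and Dnmt3b are shown because CpG sites are the substrate of the enzymes and these windows differ in how many they hold. RefSeq (GRCm38.p6) sequences matched all 10 members, with 17 promoters in total. Each is printed 5′ to 3′ on the strand of the gene, ends at the base before an annotated start, and has its CpG sites in capitals. The Tet1 sequence was stopped at an exon of another Tet1 transcript, and of the 3 Dnmt3l starts the middle one is shown.
Tet1, chr10:62887325-62887412, minus strand: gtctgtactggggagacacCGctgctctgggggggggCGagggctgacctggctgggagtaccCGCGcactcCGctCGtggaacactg
Dnmt3l, chr10:78049592-78049841, plus strand: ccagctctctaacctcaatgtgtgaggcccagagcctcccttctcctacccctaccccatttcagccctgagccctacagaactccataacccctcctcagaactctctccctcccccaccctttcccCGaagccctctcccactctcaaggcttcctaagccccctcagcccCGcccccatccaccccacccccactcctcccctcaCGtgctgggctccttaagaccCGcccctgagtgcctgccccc
Dnmt3b, chr2:153649199-153649448, plus strand: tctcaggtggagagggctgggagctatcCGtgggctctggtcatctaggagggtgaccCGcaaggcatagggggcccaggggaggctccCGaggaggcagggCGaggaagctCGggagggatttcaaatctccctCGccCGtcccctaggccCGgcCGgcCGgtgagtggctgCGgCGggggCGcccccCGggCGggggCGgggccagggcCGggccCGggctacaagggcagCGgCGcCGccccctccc
The 250 bases before the start held 21 CpG sites in Dnmt3b and 15 in Tet1, of which 6 lie in the 88 bases printed. Dnmt3l has 3 annotated starts, preceded by 5, 4 and 3 sites, where the median of 32851 promoters was 6. The Tet1 start shown is internal, and GENCODE transcripts of Tet1 also begin upstream of it, as far as 62908996. The FPKM values give no level per start, so which starts of Dnmt3l and Tet1 were used was not resolved. Tet2 had the most sites of all member promoters, 51.

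The cut-off of the study, a fold change (FC) ≥ 2 and FPKM ≥ 2, was applied with FPKM ≥ 2 in at least 1 library. All 10 members reached that FPKM, 2 members (Dnmt3l and Tet1) passed it as higher in the library labelled iKO, and 0 members passed it as lower. Among all 12376 genes with this FPKM, 6.73% were past the cut-off and higher and 8.39% were past it and lower. The median log2 ratio of the 10 members was -0.12, against -0.00455 for all 12376 genes, with 4 members above 0 and 6 below. Ino80 itself stood at 8.90 FPKM in the control and 10.3 in the library labelled iKO, so its level was not lower where the label has it deleted. A value per gene does not resolve a deleted exon and so does not check the label, on which every direction here rests. The steps between low FPKM values put the depth at about 27500000 fragments in the control library and 21400000 in the other, and the 95% intervals below cover counting error only.

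**Figure D1:**
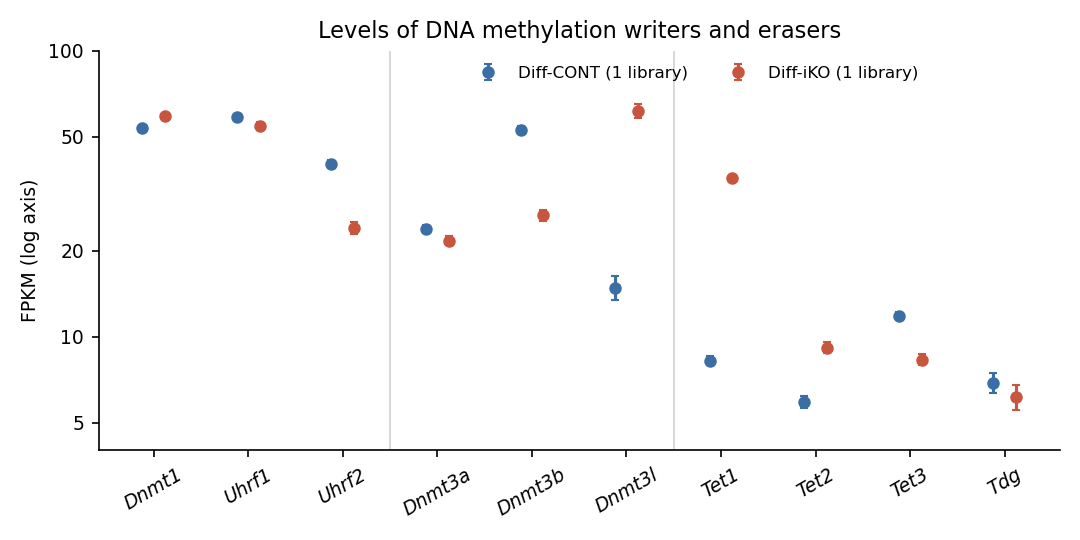
FPKM of the 10 members (log axis) in the 2 libraries, with exact 95% Poisson intervals from the estimated fragments; vertical lines separate maintenance, de novo and demethylation genes. Dnmt3l (14.8 and 61.5) and Tet1 (8.25 and 36.0) stand apart between the libraries, whereas Dnmt1 lies at 53.5 and 58.9.

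Of the maintenance genes, Dnmt1, on chromosome 9 from 20907209 to 20959888 of GRCm38, had a level of 53.5 FPKM in the control library and 58.9 in the library labelled iKO. Its log2 ratio was 0.14 (interval 0.09 to 0.19), far from the cut-off. It was 0.08 (0.03 to 0.13) when the upper quartiles of the libraries were made equal and 0.05 (-0.0011 to 0.09) when both were given the same FPKM sum, where the interval includes 0. Uhrf1, on chromosome 17 from 56303321 to 56323486, was 58.5 and 54.8 (log2 ratio -0.10, interval -0.15 to -0.04). There were 1.09 Uhrf1 FPKM per Dnmt1 FPKM in the control library and 0.929 in the other, a shift that was small but larger than counting error (log2 difference -0.24, interval -0.31 to -0.16). Uhrf2, a paralog of Uhrf1 on chromosome 19 from 30030513 to 30093722 that does not replace it in maintenance, was 40.2 and 24.0. Its log2 ratio of -0.75 (interval -0.83 to -0.66) was the lowest of the 3 maintenance genes and not past the cut-off. Uhrf1 made up 59.3% of the summed Uhrf FPKM in the control library and 69.5% in the library labelled iKO.

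Because Dnmt1 and Uhrf1 are transcribed mainly in cycling cells, 21 genes of S phase were set beside them. Of these, 0 were past the cut-off and higher and 1, Gins2 of the replicative helicase, was past it and lower (29.2 and 14.2), and the median log2 ratio was -0.04. The promoters of Dnmt1 and Uhrf1 share a sequence feature that the other members lack. The E2F-type motif TTTNNCGC, searched on both strands, was found in 3 of the 17 member promoters, namely in 1 of the 3 Dnmt1 promoters and in both Uhrf1 promoters, and in 4.28% of all promoters. Such a match is a description of the letters and not a binding site. The GC box GGGCGG was in 12 of the 17 and in 32.7% of all promoters, and CCAAT was in 6 of the 17 and in 33.8%. The KLF-type motif GGGNGTG was in 5 of the 17, namely 2 of the 3 Dnmt3l promoters, 1 of the 3 Dnmt1 promoters and both Uhrf1 promoters, and in 26.1% of all. The octamer ATTTGCAT, bound by OCT4, was in 0 of the 17 (1.60% of all), and so were AACAATG, a Sox motif (3.29%), AAGGTCA, an Esrrb motif (4.08%), and AANATGGC, a YY1 motif (3.91%). All were searched on both strands of these 250-base windows, which leave out distal elements, and 2 Dnmt3a windows overlap.

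The 3 genes of the de novo group took different directions. Dnmt3a, on chromosome 12 from 3806007 to 3914443, was 23.8 in the control library and 21.7 in the library labelled iKO, with a log2 ratio of -0.13 (interval -0.21 to -0.06). Dnmt3b, on chromosome 2 from 153649450 to 153687730, was 53.0 and 26.6. The control value was 1.99 times the other, a log2 ratio of -0.995, and its counting interval, -1.07 to -0.92, spans the cut-off. Dnmt3b was past the cut-off under each of 3 other scalings of the libraries. It was -1.09 (interval -1.16 to -1.02) when both were given the same FPKM sum. With equal upper quartiles it was -1.05 (-1.13 to -0.98), and with a median ratio of 1 it was -1.001 (-1.08 to -0.93). The upper-quartile and median-ratio intervals span the cut-off. Dnmt3l, on chromosome 10 from 78041947 to 78063622, rose from 14.8 to 61.5, 4.16-fold (log2 ratio 2.06, interval 1.90 to 2.22), and 2.15% of the 12376 genes had a ratio at least as high. Its exons overlap those of Aire on the other strand, and Aire was 3.28 and 8.39. The strand setting of the counting is not given in the sources used here, so the reads of the pair may be mixed.

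The makeup of the de novo group differed between the libraries. The catalytic genes Dnmt3a and Dnmt3b together had an FPKM of 76.8 in the control library and 48.3 in the library labelled iKO. Dnmt3a made up 31.0% of that sum (counting interval 30.1% to 31.9%) and 45.0% (43.5% to 46.4%), respectively. There were 2.22 Dnmt3b FPKM per Dnmt3a FPKM in the control library and 1.22 in the library labelled iKO, a log2 difference of -0.86 (interval -0.96 to -0.76) that no scaling of a library can change. For the cofactor, there were 0.193 Dnmt3l FPKM per FPKM of the catalytic pair in the control library and 1.28 in the library labelled iKO. Dnmt3l was thus the least abundant gene of the group in the first library and the most abundant in the second.

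**Figure D2:**
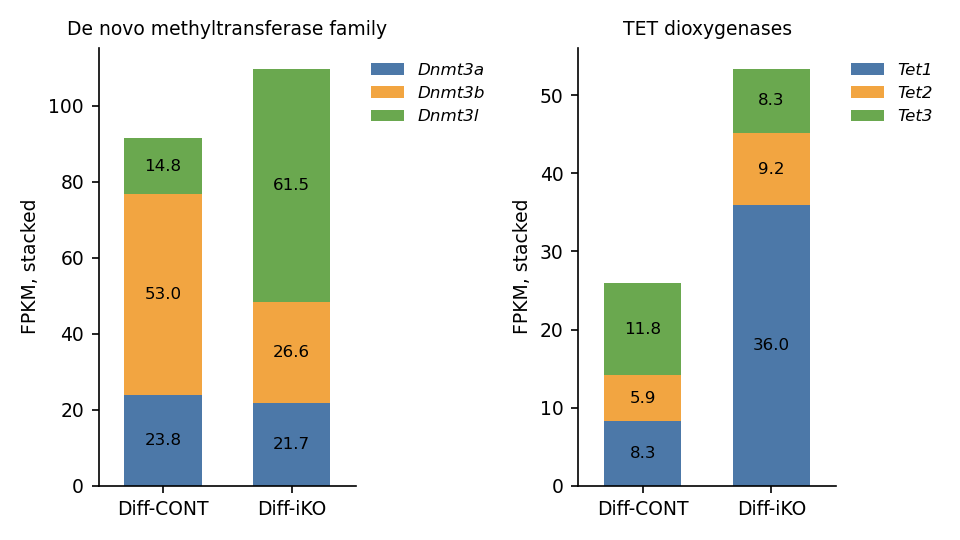
Stacked FPKM of Dnmt3a, Dnmt3b and Dnmt3l (left) and of Tet1, Tet2 and Tet3 (right), 1 bar per library, with the FPKM of each gene written in its segment. In the library labelled iKO, Dnmt3l (61.5) and Tet1 (36.0) form the tallest segments, where Dnmt3b (53.0) and Tet3 (11.8) do so in the control library.

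Among the TET genes, Tet1, on chromosome 10 from 62804570 to 62908996, rose from 8.25 to 36.0. The fold of 4.36, a log2 ratio of 2.12 (interval 2.07 to 2.18), rested on about 3395 and 11051 fragments, and 2.03% of all genes tested had a ratio at least as high. Tet2, on chromosome 3 from 133463679 to 133545139, was 5.92 in the control library and 9.16 in the library labelled iKO (log2 ratio 0.63, interval 0.53 to 0.73). Tet3, on chromosome 6 from 83362373 to 83459084, was 11.8 and 8.30 (log2 ratio -0.51, interval -0.59 to -0.43). Tet2 and Tet3 were thus on opposite sides of their control levels, beyond counting error and within the cut-off, and their sum was 17.7 and 17.5.

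The summed FPKM of the 3 TET genes was 26.0 in the control library and 53.4 in the library labelled iKO, a fold of 2.06. Tet3 held the largest share of the sum in the control library, 45.4% (interval 44.4% to 46.5%), and Tet1 in the library labelled iKO, 67.3% (66.5% to 68.2%). There were 0.700 Tet1 FPKM per Tet3 FPKM in the control library and 4.34 in the library labelled iKO.

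Tdg, on chromosome 10 from 82629828 to 82650799, was 6.90 and 6.15, a log2 ratio of -0.17 whose interval, -0.36 to 0.02, includes 0. It was -0.22 (-0.42 to -0.04) with equal upper quartiles and -0.26 (-0.45 to -0.07) with the same FPKM sum, where the interval lies below 0. The Tdg level is uncertain for another reason. A transcript of the gene Gm9855 matched Tdg over 1194 aligned bases with an identity of 99.2%, and Gm9855 was itself listed at 16.3 and 14.6. Summed, the 2 genes were 23.2 and 20.8. The sum does not cover all copies, since Tdg-ps (98.7% over 2968 bases) and Gm5597 (99.3% over 1193 bases) also matched Tdg and were not analysed here. A similar copy of Uhrf1 named Gm5648 (98.3% over 1590 bases) was not analysed here.

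**Figure D3:**
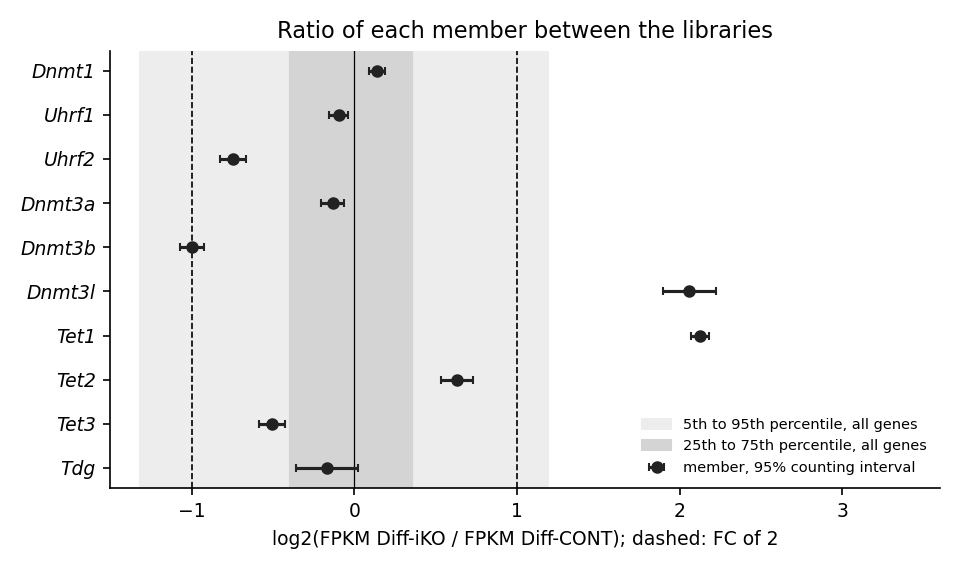
log2 ratio of FPKM (Diff–iKO over Diff–CONT) of each member, with exact 95% counting intervals; grey bands give the central ranges of the 12376 genes with FPKM ≥ 2 and dashed lines mark FC of 2. Dnmt3l (2.06) and Tet1 (2.12) lie beyond the 95th percentile of all genes (1.19), and Dnmt3b (-0.995) lies at the lower line.

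In order of level, the control library ran from Uhrf1 (58.5) through Dnmt1, Dnmt3b, Uhrf2, Dnmt3a, Dnmt3l, Tet3, Tet1 and Tdg to Tet2 (5.92). The neighbors Dnmt1 and Dnmt3b (53.5 and 53.0) did not differ beyond their counting intervals. In the library labelled iKO the order ran from Dnmt3l (61.5) through Dnmt1, Uhrf1, Tet1, Dnmt3b, Uhrf2, Dnmt3a, Tet2 and Tet3 to Tdg (6.15), and here the neighbors Dnmt3l and Dnmt1 (61.5 and 58.9) had overlapping intervals. Dnmt3l moved from the 6th place to the 1st and Tet1 from the 8th to the 4th, whereas Dnmt3b went from the 3rd to the 5th. Levels of different genes depend on the transcript lengths used by the authors, which the intervals do not cover.

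Markers of the cells were looked at beside these values. Of 17 markers of undifferentiated ESCs, 14 passed as higher in the library labelled iKO, 1 passed as lower, and their median log2 ratio was 2.17. Their summed FPKM was 656 in the control library and 3247 in the library labelled iKO, and none was at 0 in either. Dppa5a, an RNA-binding protein gene of pluripotent cells, had the highest level of them, 258 and 2115. Pou5f1, which encodes OCT4, rose from 60.8 to 247, and Nanog from 19.5 to 81.2. Lin28a, a regulator of let-7 that is higher in primed than in naïve cells, fell from 103 to 28.6, and Sox2 (42.7 and 68.2) and Sall4 (27.5 and 28.6) were not past the cut-off. Markers of differentiated cells were compared between the libraries in the same way, which does not check the label of differentiating ESCs. All 5 endoderm markers were past the cut-off and lower, such as Afp (45.9 and 0.422), and 3 of the 5 cardiomyocyte markers reached the FPKM minimum and all of these were lower, such as Tnnt2 (14.7 and 4.17). Of 5 markers each, endothelial cells had 2 higher and 3 lower, mesenchyme had 0 and 2, trophoblast had 1 and 2, and neural cells had 0 past the cut-off in either direction. In RNA of a whole culture, fewer cells of a type and less RNA per cell cannot be told apart, and the part of these markers in the levels of the members was not tested.

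Set against Pou5f1 within each library, a comparison chosen after the values were seen, there were 0.243 Dnmt3l FPKM per Pou5f1 FPKM in the control library (interval 0.218 to 0.271) and 0.249 in the library labelled iKO (0.235 to 0.265). For Tet1 the values were 0.136 (0.129 to 0.143) and 0.146 (0.141 to 0.150). The log2 differences were 0.03 (interval -0.14 to 0.21) for Dnmt3l and 0.10 (0.01 to 0.19) for Tet1, so both genes lay close to their control levels relative to Pou5f1. Relative to each other, there were 1.79 Dnmt3l FPKM per Tet1 FPKM in the control library and 1.71 in the other (log2 difference -0.07, interval -0.24 to 0.10). Dnmt3b did not, with 0.872 Dnmt3b FPKM per Pou5f1 FPKM in the control library and 0.108 in the library labelled iKO. Among the markers that rose, the ratio was not the same for all, and relative to Esrrb, an orphan nuclear receptor of naïve ESCs, Dnmt3l was 2.08 and 1.46 and Tet1 was 1.16 and 0.856.

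The genes that act with the members were examined as lists. Of 15 genes that recruit, stabilize or guide the methyltransferases, 1 was past the cut-off and higher, 1 was past it and lower, and the median log2 ratio was 0.13. Dppa3, whose product displaces UHRF1 from chromatin and is known from oocytes, germ cells and naïve ESCs, rose from 10.2 to 46.1 (log2 ratio 2.17, interval 1.94 to 2.41). Pclaf, listed under its older name 2810417H13Rik and encoding a PCNA-binding partner of the maintenance machinery, fell from 33.4 to 8.53. The other 13 were not past it, among them Trim28, the corepressor of zinc finger proteins (212 and 278), Pcna, the sliding clamp (108 and 94.2), and the chromatin remodeler Hells (30.9 and 44.2). Zfp57, which protects methylation at imprinted sites with TRIM28, was 60.0 and 104, and Usp7, the deubiquitinase that stabilizes UHRF1 and DNMT1, was 48.8 and 65.7.

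Of 7 genes that bind, modify or guide TET proteins, 1 was past the cut-off in each direction. Prdm14, a repressor of Dnmt3b in naïve ESCs and germ cells, rose from 0.872 to 3.85 (log2 ratio 2.14, interval 1.72 to 2.57). Cxxc4, which carries the CXXC domain once joined to Tet2 and lowers TET2 protein, fell from 3.54 to 1.08 (log2 ratio -1.71, interval -1.99 to -1.43). Each reached the FPKM minimum only in the library where it was higher, and with FPKM ≥ 2 in both libraries 0 of the 7 genes were past the cut-off. Ogt, the O-GlcNAc transferase bound by TET proteins, was 101 and 66.3, and Hcfc1, a cofactor processed by OGT, was 43.0 and 37.1.

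The next lists cover the genes that read methylation and those of base excision repair. Of 10 methyl-CpG readers and their relatives, 0 were past the cut-off in either direction and the median log2 ratio was 0.11. Mbd3 was 64.8 and 69.7, Mbd6 was 17.9 and 21.5, and the highest ratio, 0.98 with an interval of 0.76 to 1.20, was that of the zinc finger reader Zbtb38 (4.32 and 8.51). Of 14 genes of base excision repair and the Gadd45 family, which include glycosylases beside TDG and genes of the later steps, 0 were higher and 1 was lower past the cut-off, and the median was -0.01. That gene was the glycosylase Neil3, which fell from 7.64 to 3.08 (log2 ratio -1.31, interval -1.59 to -1.04). Gadd45g (27.2 and 53.9) and Gadd45a (17.3 and 33.7) came close to the cut-off, with intervals of 0.85 to 1.13 and 0.80 to 1.12, and Parp1 (92.3 and 88.3) and the abasic endonuclease Apex1 (70.4 and 80.5) had the highest levels.

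**Figure D4:**
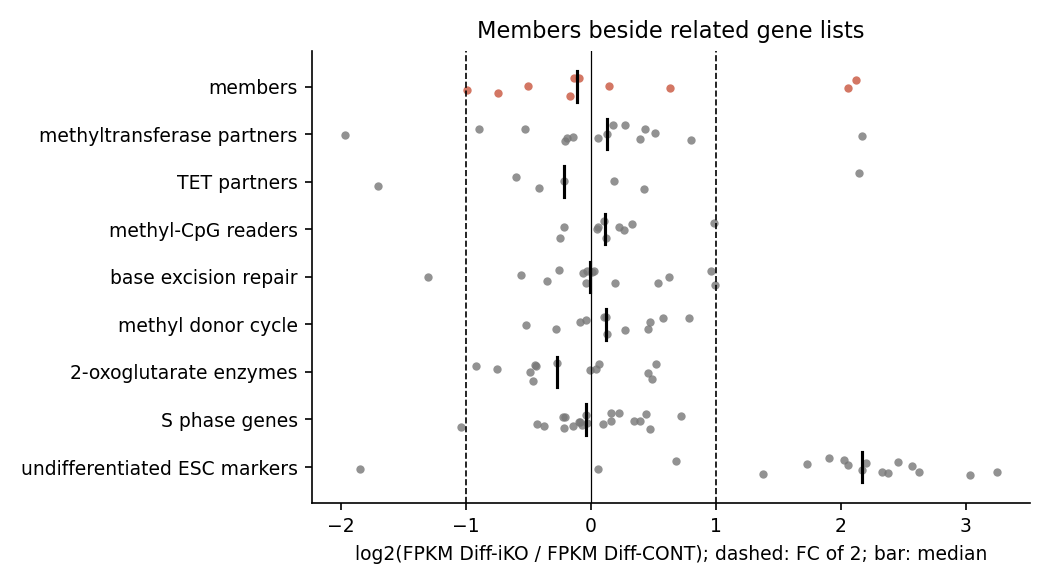
log2 ratio of FPKM (Diff–iKO over Diff–CONT) of the members and of the genes of 8 related lists with FPKM ≥ 2 in at least 1 library; each point is a gene, bars are medians and dashed lines mark FC of 2. The medians of the lists lie between -0.27 and 0.13, except for the undifferentiated ESC markers at 2.17.

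The substrates of the enzymes are supplied by 2 metabolic routes. Of 16 genes of the methionine and folate cycles, which make the methyl donor S-adenosylmethionine, 12 reached the FPKM minimum, 0 of these were past the cut-off, and the median log2 ratio was 0.12. Mat2a, the S-adenosylmethionine synthetase of most cells, was 81.7 and 141 (log2 ratio 0.78, interval 0.74 to 0.83), and Mthfd1, a trifunctional enzyme of the folate cycle, was 46.4 and 69.3. Of 13 genes that make or use 2-oxoglutarate, the cosubstrate of the TET enzymes, or remove their inhibitors, 0 were past the cut-off and the median was -0.27, with 5 above 0 and 8 below. Idh2, the mitochondrial isocitrate dehydrogenase, was 136 and 112, and of the 4 subunits of succinate dehydrogenase, Sdhd was 88.1 and 64.6, Sdha 90.1 and 53.6, Sdhc 73.3 and 38.6, and Sdhb 68.7 and 71.8. Among these 6 lists, the genes past the cut-off were thus 1 methyltransferase partner and 1 TET partner that were higher, and 1 gene each of the partners of both enzymes and of base excision repair that were lower.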

How the data were processed

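Poly(A) RNA of 1 Diff–CONT and 1 Diff–iKO culture was sequenced starting with 1 µg total RNA, by a strand-specific mRNA protocol. The authors deposited FPKM values for 24354 genes, made per the submitters' processing notes and the methods with STAR 2.7.9a on mm10 and with Cuffquant and Cuffnorm of Cufflinks 2.2.1. The gene annotation and the strand setting are not given in the sources used here. Both value columns were assigned by name, and 0 other value columns were present.

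The log2 ratio was taken without a pseudocount. The number of fragments behind a value was estimated from 10484 genes for which RefSeq lists a single transcript, 1000 nucleotides or longer. Their low FPKM values rise in steps set by transcript length less 180 nucleotides. Of 1196 and 1106 low values, 87.3% and 88.3% lay within 0.2 of a whole multiple. For a step fixed beforehand 40% would by chance. The steps and the 180 nucleotides were fitted to these same values, so the 40% is not a strict yardstick. The shortest RefSeq transcript gave the fragments of each gene. Ratios have exact Clopper-Pearson intervals, levels have exact Poisson intervals, and shares and differences of ratios have intervals from the delta method. Depth sets these intervals, which are wider for short transcripts and low values.

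The members and the gene lists were chosen with earlier results of these data known. Named are all members, Ino80 and, of the lists of methyltransferase partners, TET partners, readers, base excision repair, methyl donor cycle, 2-oxoglutarate enzymes and germline genes, those past the cut-off and the 2 with the highest mean FPKM. Others in these lists (Hells, Zfp57, Usp7, Zbtb38, Gadd45a, Gadd45g, Sdha, Sdhb, Sdhc, Tex101, Asz1 and Brdt), overlapping genes and copies, and all genes named from the marker and S phase lists, of which many past the cut-off are not named, were named after their values were seen. Coordinates are from GENCODE vM21 (GRCm38). Copies were sought with minimap2 2.31. Alternatives were other pseudocounts, scalings, FPKM filters, fold minima and transcript lengths. The steps were tested on simulated data. Python 3.11.15, numpy 2.4.6, pandas 2.3.3 and scipy 1.17.1 were used.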

Additional observations from a re-analysis of the deposited data

How the results depend on the processing

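Settings were changed 1 at a time. The 2 members past the cut-off and higher, Dnmt3l and Tet1, stayed past it under each other pseudocount, scaling and filter except relative to Pou5f1. Both also passed FC ≥ 4, which was applied only to the FPKM as listed, without a pseudocount or another scaling. Dnmt3l was below 4-fold with the same FPKM sum, with equal upper quartiles and with 1 added to each FPKM. Tet1 was just below 4-fold with 1 added. The count of members higher rose to 3 with Tet2 at FC ≥ 1.5. The count of members lower was 0 as reported and 1, Dnmt3b, when the libraries were scaled to the same FPKM sum, to a median ratio of 1 or to equal upper quartiles, and 2, with Uhrf2, at FC ≥ 1.5. The same-sum and upper-quartile scalings moved the median log2 ratio of the members to -0.21 and -0.17. Small ratios depended on the scaling, as 0 entered the interval of Dnmt1 with the same FPKM sum and left that of Tdg with this and the upper-quartile scaling. The genes of the related lists, germline genes included, past the cut-off were 7 higher and 3 lower, and 7 and 4 with the same FPKM sum. With FPKM ≥ 2 in both libraries they were 1 higher and 2 lower. Higher genes became 17 without a filter, 13 with FC ≥ 1.5 and 6 with FC ≥ 4. Lower genes became 4 without a filter, 7 with FC ≥ 1.5 and 0 with FC ≥ 4, since these settings admit fewer or more genes. Adding 1 to each FPKM moved the shares of Tet2 and Tet3 in the control library to 23.9% and 44.2%, and those of Tet1, Tet2 and Tet3 in the library labelled iKO to 65.5%, 18.0% and 16.5%. Summing entries of one symbol changed nothing, since 0 symbols were repeated. Relative to Pou5f1, a scaling added after the data were seen, the log2 ratio was 0.03 for Dnmt3l and 0.10 for Tet1, between -3.02 and -1.39 for the other members. No paired analysis was possible because each condition has 1 library. With 1 library per condition, the spread between cultures is unknown.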

Other observations

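Germline genes whose CpG-rich promoters are known to be methylated and silent in somatic cells were looked up as 14 genes outside the members. In the control library 0 of them reached an FPKM of 2, and in the library labelled iKO 5 did, which therefore had to be higher there. Taken over all 14, 13 had a higher FPKM in the library labelled iKO, 12 of them with a counting interval above 0, and the median FPKM was 0.361 and 1.15. Of the 7127 genes whose mean FPKM lay in the range of these 14, 49.2% had a higher FPKM in the library labelled iKO. Of those with an interval, 20.9% had it above 0. The range was wide, from 0.0287 to 3.69, and intervals narrow with more fragments, so 20.9% is not a rate for genes of like level. The list was chosen with earlier results of these data known, so setting it beside these shares is not a test of the list. Taf7l, a germ cell paralog of a general transcription factor subunit, rose from 0.533 to 6.86 (about 28 and 267 fragments), Hormad1, of the meiotic chromosome axis, from 0.452 to 4.39, and Ddx4, a germ cell RNA helicase, from 1.48 to 4.42. Sycp3, of the synaptonemal complex, rose from 0.570 to 2.71, and Tuba3a, a testis tubulin, from 0.554 to 4.07. In the control library Tex101 and Asz1 were listed at 0, and in the other at 0.666 and 0.0573, and Brdt, a testis bromodomain gene, was 0.493 and 0.404. The 250 bases before the 16 annotated starts of these 14 genes held a median of 17.5 CpG sites, against 6 over all promoters. Of the 5 genes that reached an FPKM of 2, Tuba3a had 8 sites, Sycp3 12, Taf7l 14, Hormad1 19 at both starts and Ddx4 31.

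Of 5 markers of primordial germ cells, 4 reached the FPKM minimum, with a median log2 ratio of 0.60. The 1 past the cut-off was Tfap2c, a transcription factor of germ cells and trophoblast, which rose from 6.68 to 24.1. Nanos3, a translational repressor of germ cells, was 0.552 and 0.734, and Kit, a receptor of migrating germ cells, was 20.6 and 26.1. Of the 17 markers of undifferentiated ESCs, 14 were also higher and 1 was lower past the cut-off, with a median log2 ratio of 2.17. Their part in the levels of the germline genes was not tested. DNA methylation itself was not measured, so the levels of the members and of the germline genes cannot be related to methylation here.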
